A study of Homo sapiens with 4 samples.

Results

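KCNH2, CASQ2, LMOD1, SLC2A4 and IP6K3 are 5 genes best known from heart, skeletal or smooth muscle, and their cohesin loops were followed in GM12878, a B lymphoblastoid cell line immortalised with Epstein-Barr virus. The 5 genes were picked from earlier results of the same libraries, as genes whose loop counts stood higher in both drug libraries than in their vehicles. The contrasts of aphidicolin with DMSO and of hydroxyurea with water therefore chose them, and every ratio of these contrasts given for them is a description without a test. A loop belonged to a gene when an anchor of 5 kb lay on its RefSeq gene body. By this rule the 5 genes, of 9473 protein-coding genes with a listed loop, held 37 of the 41846 loops listed in any library. They held 10 of the 9529 loops listed in all 4 libraries.

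The libraries were made by HiChIP of SMC1, a method that ligates DNA ends lying close together in fixed chromatin and then enriches contacts bound by a chosen protein with an antibody. The APH culture received 0.4 µM aphidicolin, an inhibitor of the replicative DNA polymerases, for 18 h, and its control received dimethyl sulfoxide (DMSO). The HU culture received 0.2 mM hydroxyurea, which blocks ribonucleotide reductase and so depletes deoxynucleotides, for 18 h, and its control received water (H2O). Each of the 4 groups has 1 library of this 1 cell line, so no difference has a replicate check, and the ratios compare libraries. H2O vs DMSO, with no drug on either side, is given as the difference between the 2 vehicle libraries. A different lymphoblastoid line appears in the titles of the samples, although their cell line field, source and library names all read GM12878.

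The lists held 17660 to 27395 loops per library, longest in APH and shortest in DMSO, with a median of 20 contact counts per loop in every library. The total of the 9529 shared loops was 376948 counts in APH, 300320 in DMSO, 322048 in HU and 325634 in H2O, and counts were scaled by these totals. The total sequencing depth is unknown, and a pair of bins that a list leaves out is not a measured 0. Of 13 B cell marker genes, 12 carried a listed loop in APH, 10 in DMSO, 9 in HU and 11 in H2O, and CD79B carried none in any list. The listed counts of these markers summed to 1908 in APH and 1364 in DMSO, and 1378 in HU and 1765 in H2O, unscaled. In scaled counts of shared loops, the 6 markers with at least 100 counts had a median log2 ratio of -0.13 with APH and -0.15 with HU. HiChIP measures contacts and not RNA, so nothing here says whether the 5 genes were transcribed.

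Cohesin is a ring of SMC1, SMC3, a kleisin and a STAG subunit that extrudes chromatin loops until it meets bound CTCF or other obstacles, and it also holds sister chromatids together after replication. Loops that bring a promoter near another element can accompany transcription, but they also occur at genes that are silent in the cell studied. KCNH2 encodes the pore subunit of the rapid delayed rectifier potassium channel, which repolarises heart muscle cells after each beat. CASQ2 encodes the cardiac calsequestrin, which buffers calcium in the sarcoplasmic reticulum, and LMOD1 encodes leiomodin 1, an actin filament nucleator of smooth muscle. SLC2A4 encodes GLUT4, the insulin-responsive glucose transporter of muscle and fat, and IP6K3 encodes an inositol hexakisphosphate kinase that is prominent in skeletal muscle.

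The genes lie at 5 places on 4 chromosomes of GRCh38.p14, the same build as hg38. KCNH2 lies on chromosome 7 from 150944961 to 150978321, CASQ2 on chromosome 1 from 115700021 to 115768714, and LMOD1 on chromosome 1 from 201896456 to 201946548. SLC2A4 lies on chromosome 17 from 7281718 to 7288257 and IP6K3 on chromosome 6 from 33721662 to 33762145. RefSeq start sites were matched for 4 of the 5 genes, all on the minus strand, and SLC2A4 had no entry. The 250 bases before a start site are printed below for the start sites whose 5 kb bin was an anchor of a listed loop, since these windows lie inside the anchors whose counts are described. Capitals mark motif matches. The gene end named for KCNH2, here and below, is its upper-coordinate end, where this minus-strand gene begins.
KCNH2 gene end, start site 150978321, chr7:150978322-150978571, minus strand: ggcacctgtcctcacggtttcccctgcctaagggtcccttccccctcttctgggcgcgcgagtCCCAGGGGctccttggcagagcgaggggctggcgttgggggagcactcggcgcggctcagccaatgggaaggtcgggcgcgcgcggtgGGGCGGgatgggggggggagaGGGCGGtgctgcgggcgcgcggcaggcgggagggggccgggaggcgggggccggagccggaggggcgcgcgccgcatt
KCNH2 start site 150975041, chr7:150975042-150975291, minus strand: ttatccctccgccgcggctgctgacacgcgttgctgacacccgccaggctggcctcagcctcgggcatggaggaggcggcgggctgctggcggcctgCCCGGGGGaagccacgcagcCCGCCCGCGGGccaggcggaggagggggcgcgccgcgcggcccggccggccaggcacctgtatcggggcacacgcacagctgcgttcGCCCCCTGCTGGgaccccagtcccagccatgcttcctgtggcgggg
KCNH2 internal start site 150960056, chr7:150960057-150960306, minus strand: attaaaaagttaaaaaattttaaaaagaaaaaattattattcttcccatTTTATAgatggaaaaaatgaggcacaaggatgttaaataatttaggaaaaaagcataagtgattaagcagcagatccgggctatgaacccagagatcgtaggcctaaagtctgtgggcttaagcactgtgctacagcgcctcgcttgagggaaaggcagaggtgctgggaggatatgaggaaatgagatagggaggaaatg
CASQ2 start site 115768714, chr1:115768715-115768964, minus strand: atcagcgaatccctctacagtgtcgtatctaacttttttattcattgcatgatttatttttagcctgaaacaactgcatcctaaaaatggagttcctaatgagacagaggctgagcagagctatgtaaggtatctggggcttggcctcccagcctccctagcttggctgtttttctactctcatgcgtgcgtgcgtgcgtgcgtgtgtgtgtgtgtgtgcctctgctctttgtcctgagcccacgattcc
LMOD1 start site 201946548, chr1:201946549-201946798, minus strand: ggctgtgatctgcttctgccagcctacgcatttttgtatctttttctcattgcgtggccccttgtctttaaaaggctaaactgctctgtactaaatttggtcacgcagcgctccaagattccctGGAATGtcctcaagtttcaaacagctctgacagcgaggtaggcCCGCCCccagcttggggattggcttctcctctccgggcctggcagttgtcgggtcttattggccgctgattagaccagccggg
IP6K3 start site 33746905, chr6:33746906-33747155, minus strand: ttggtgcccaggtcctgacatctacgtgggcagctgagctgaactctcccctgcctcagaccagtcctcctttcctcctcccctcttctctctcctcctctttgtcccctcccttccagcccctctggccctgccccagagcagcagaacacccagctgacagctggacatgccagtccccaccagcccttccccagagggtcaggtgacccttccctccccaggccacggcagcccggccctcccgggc

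Motifs were searched on both strands in these windows and in 21983 windows of the same length before start sites of protein-coding genes. The EBF1 site, bound by a B cell factor and searched as CCCNNGGG, was present in 19.7% of all windows. The GC box bound by Sp1, searched as GGGCGG, was present in 53.7%. The TATA box, searched as TATAAA, was present in 9.03%. The site of the muscle-active TEAD factors, searched as CATTCC, was present in 10.5%. A CTCF core of 12 letters with free positions was present in 10.5%, and a site of 10 letters for the MEF2 factors in 2.07%. Among the printed windows the CTCF core was matched 1 time, before the KCNH2 start site 150975041, which also held 2 EBF1 matches and 1 GC box that overlaps 1 of these matches. The window at the KCNH2 gene end held 1 EBF1 match and 2 GC boxes, and the internal KCNH2 window 1 TATA box. The LMOD1 window held 1 GC box and 1 TEAD match, and the CASQ2 and IP6K3 windows held none of the 6. The KCNH2 windows before the start sites 150955804 and 150974506, whose bins were an anchor in no list, are not printed. Each of them also held 1 CTCF core match, with 3 and 5 GC boxes. The printed KCNH2 windows differed in composition, with 77.2% G and C at the gene end, 76.8% at 150975041 and 38.4% at the internal start site, against a median of 62.0% over the 21983 windows. A match is a run of letters and not a measured binding site.

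KCNH2, the cardiac potassium channel gene, carried 4 listed loops, and 2 of them were listed in all 4 libraries. Their summed count was 101 in APH and 46 in DMSO, and 80 in HU and 52 in H2O. Per 100000 counts of shared loops this was 26.8 in APH (95% exact Poisson interval 21.8 to 32.6) and 15.3 in DMSO (11.2 to 20.4), and 24.8 in HU (19.7 to 30.9) and 16.0 in H2O (11.9 to 20.9). Both drug libraries thus stood above both vehicle libraries. The intervals of APH and DMSO did not overlap, and those of HU and H2O did. Such overlap, here and below, was not counted over all genes, and the contrasts that chose the genes set it in part. APH vs DMSO gave a log2 ratio of 0.81 (95% exact conditional binomial interval 0.29 to 1.34), HU vs H2O one of 0.64 (0.12 to 1.17) and H2O vs DMSO one of 0.06 (-0.54 to 0.66). These intervals, here and below, cover counting error only, and since the reads carry no stated molecular identifiers they may be too narrow.

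The difference at KCNH2 lay mostly in 1 loop of 25 kb (150960001 to 150990000), whose inner anchor holds the AT-rich internal start site printed above. This loop had 75 counts in APH and 30 in DMSO, and 50 in HU and 28 in H2O, with log2 ratios of 0.99 and 0.85. The loop of 10 kb (150975001 to 150990000) lies at the upper-coordinate end of the gene, and its inner anchor holds the GC-rich start sites. It had 26 counts in APH and 16 in DMSO, and 30 in HU and 24 in H2O, with log2 ratios of 0.37 (-0.58 to 1.37) and 0.34 (-0.49 to 1.18). Both loops share the outer anchor upstream of the gene, which overlaps no annotated gene. One more shared loop, of 90 kb, runs from the same outer anchor across the whole gene without an anchor on it, and it had 43 counts in APH and 32 in DMSO (0.10), and 27 in HU and 32 in H2O (-0.23). Another loop to the outer anchor, of 20 kb, was listed in APH with 26 counts, in DMSO with 23 and in HU with 30. A loop of 55 kb to ATG9B, an autophagy gene, was listed in APH with 15 counts and in HU with 12 and in neither vehicle.

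CASQ2, the calsequestrin gene, carried the most listed loops of the 5 genes, 16 in all, of which 4 were listed in all 4 libraries. These 4 summed to 233 counts in APH and 143 in DMSO, and 213 in HU and 142 in H2O. Scaled, they stood at 61.8 in APH (54.1 to 70.3) and 47.6 in DMSO (40.1 to 56.1), and 66.1 in HU (57.6 to 75.6) and 43.6 in H2O (36.7 to 51.4). The HU and H2O intervals did not overlap, and the APH and DMSO intervals did. CASQ2 had log2 ratios of 0.38 in APH vs DMSO (0.07 to 0.69) and 0.60 in HU vs H2O (0.29 to 0.92), each the lowest of the 5 genes, and of -0.13 in H2O vs DMSO (-0.47 to 0.22). When libraries were scaled by all their listed loops, the APH value was -0.0004, and the shift of that scaling, -0.38 for APH vs DMSO, applies to every loop alike.

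The 4 shared loops of CASQ2 form 2 pairs, 1 joining the lower-coordinate end of the gene to a region 95 to 100 kb away and 1 spanning most of the gene body. A loop of 45 kb with both anchors inside the gene differed most, with 45 counts in APH and 18 in DMSO (0.99), and 45 in HU and 19 in H2O (1.26). The strongest loop, of 55 kb, joins the same inner anchor to the bin just upstream of the start site, and had 115 counts in APH and 68 in DMSO (0.43, -0.01 to 0.88), and 95 in HU and 84 in H2O (0.19, -0.25 to 0.63). The 2 loops thus share an anchor and end 10 kb apart, yet the weaker of them had the higher ratio in both contrasts, a difference that was not tested. Of the outer pair, the loop of 100 kb had 57 counts in APH and 42 in DMSO (0.11), and 56 in HU and 27 in H2O (1.07), and H2O vs DMSO was -0.75 (-1.51 to -0.02). Against the other vehicle it stood at 0.87 with APH (0.18 to 1.58) and 0.31 with HU (-0.29 to 0.93). The loop of 95 kb had 16 counts in APH and 15 in DMSO (-0.23, -1.35 to 0.88), the 1 ratio below 0 among the shared loops of the 5 genes, and 17 in HU and 12 in H2O (0.52).

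The other 12 loops of CASQ2 were each missing from at least 1 list. The lists held 12 CASQ2 loops in APH and 5 in DMSO, and 13 in HU and 6 in H2O. A loop of 60 kb across the gene had 23 counts in APH and 16 in HU and was in neither vehicle list, and 1 of 110 kb had 17 in each drug list. Loops of 65 and 60 kb to VANGL1, a planar cell polarity gene, were listed in HU only, with 12 and 18 counts. The bin that holds the CASQ2 start site printed above was an anchor in the HU list only, with 17 counts to a bin 50 kb inside the gene.

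**Figure D1:**
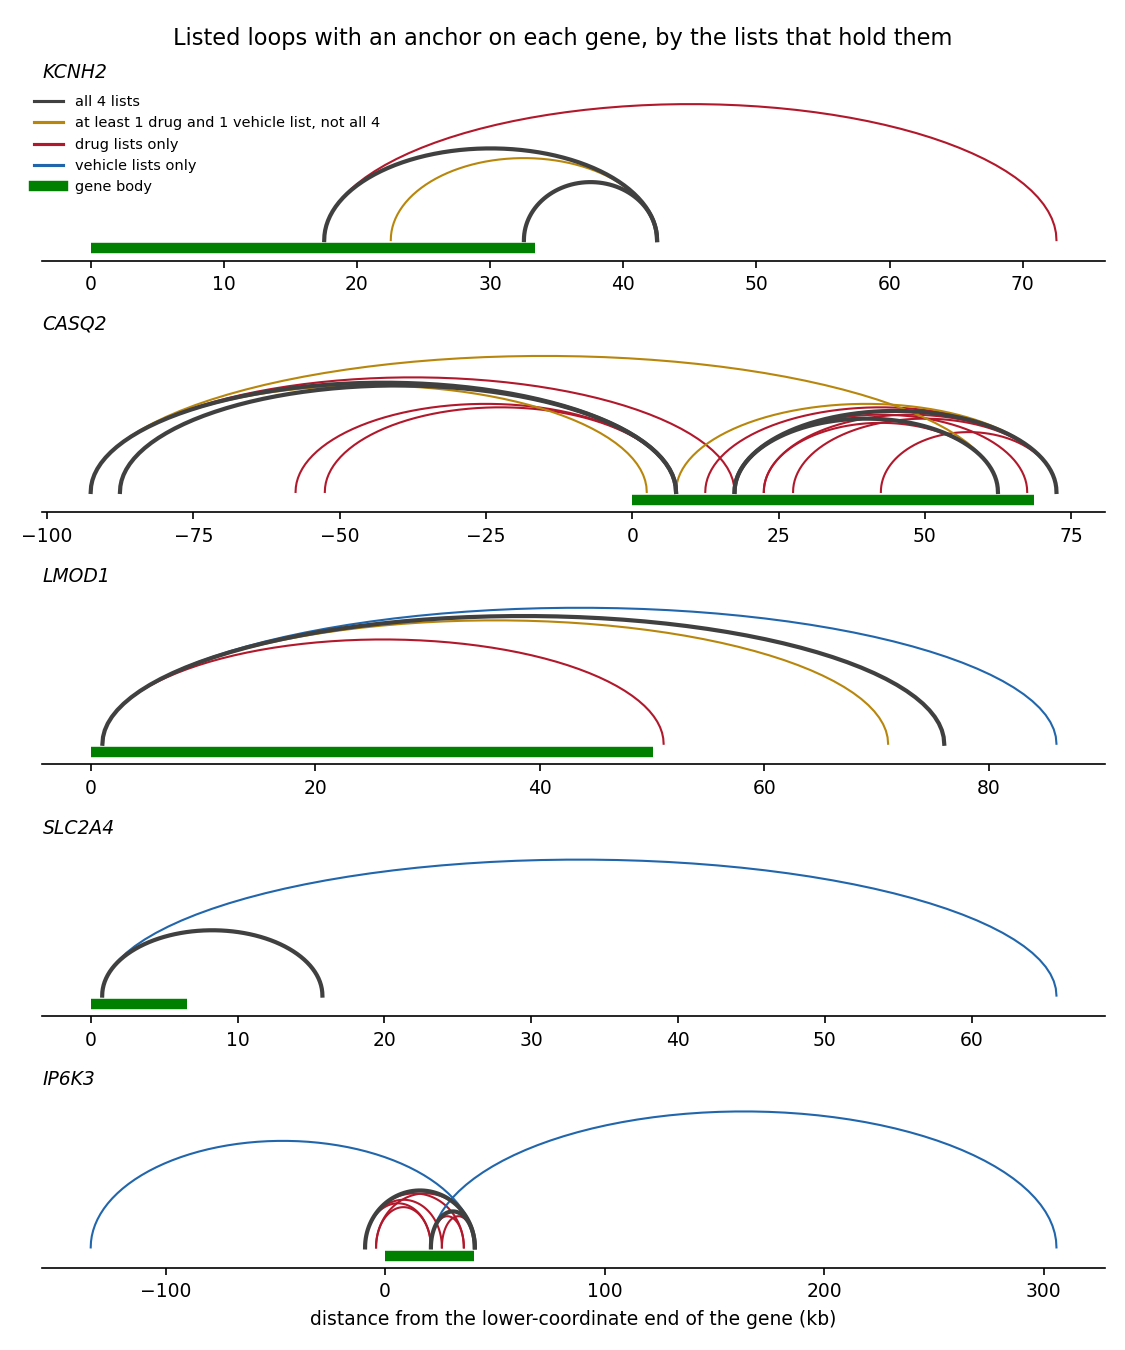
Loops listed in at least 1 library with an anchor on each gene, drawn from anchor centre to anchor centre against the distance from the lower-coordinate end of the gene in kb (arc height is arbitrary, green bars are gene bodies). Colours show which lists hold a loop, and the red arcs, in 1 or both drug lists and in no vehicle list, number 18 of 37 and lie mostly on CASQ2 and IP6K3.

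LMOD1, the smooth muscle leiomodin gene, rested on 1 shared loop. This loop of 75 kb runs from the lower-coordinate end of the gene, far from its start site, to TIMM17A, which encodes a subunit of the mitochondrial inner membrane translocase. It had 70 counts in APH and 37 in DMSO, and 68 in HU and 33 in H2O. Scaled, the values were 18.6 in APH (14.5 to 23.5) and 12.3 in DMSO (8.67 to 17.0), and 21.1 in HU (16.4 to 26.8) and 10.1 in H2O (6.98 to 14.2). Here the intervals of APH and DMSO overlapped, and those of HU and H2O did not. For LMOD1 the log2 ratio of APH to DMSO was 0.59, with an interval that just reached 0 (-0.0027 to 1.21), that of HU to H2O was 1.06 (0.44 to 1.71), and that of H2O to DMSO was -0.28 (-1.004 to 0.44). The anchor at TIMM17A also takes part in a loop of 95 kb that spans LMOD1 without an anchor on it, with 32 counts in APH and 13 in DMSO (0.97), and 20 in HU and 23 in H2O (-0.19).

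The remaining LMOD1 loops were weaker. A loop of 50 kb that joins both ends of the gene, with the printed LMOD1 start site in its anchor, was listed in HU alone with 16 counts. A second loop to TIMM17A, of 70 kb, was listed in APH with 12 counts and in H2O with 16. A loop of 85 kb to RNPEP, an aminopeptidase gene, was listed in H2O alone with 12 counts.

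SLC2A4, the GLUT4 gene, is the shortest of the 5 genes, and 1 shared loop of 15 kb (7280001 to 7300000) gave its whole value. The loop joins the bin at the lower-coordinate end of the gene to a bin beyond its other end that holds no protein-coding gene. Its count was 73 in APH and 38 in DMSO, and 68 in HU and 38 in H2O. Scaled, this was 19.4 in APH (15.2 to 24.3) and 12.7 in DMSO (8.95 to 17.4), and 21.1 in HU (16.4 to 26.8) and 11.7 in H2O (8.26 to 16.0). Again the intervals of APH and DMSO overlapped, and those of HU and H2O did not. For SLC2A4 the log2 ratio of APH to DMSO was 0.61 (0.03 to 1.22), that of HU to H2O was 0.86 (0.26 to 1.47), and that of H2O to DMSO was -0.12 (-0.80 to 0.57).

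The loop next to it at SLC2A4 had nearly equal scaled counts in both contrasts. A loop of 20 kb from the bin just outside the gene to the same far anchor (7275001 to 7300000) had 31 counts in APH and 25 in DMSO, a log2 ratio of -0.02, and 24 in HU and 24 in H2O, a ratio of 0.02. The 2 loops differ by a single bin of 5 kb at 1 anchor, and the difference between their ratios was not tested. With loops taken within 5 kb of the gene ends, which sums these 2, SLC2A4 stood at 0.40 with APH and 0.59 with HU. A loop of 65 kb to ACAP1, a GTPase-activating protein gene, was listed in DMSO alone with 14 counts.

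IP6K3, the inositol hexakisphosphate kinase gene, carried 11 listed loops and 2 shared ones. The 2 summed to 96 counts in APH and 46 in DMSO, and 118 in HU and 60 in H2O. Scaled, they stood at 25.5 in APH (20.6 to 31.1) and 15.3 in DMSO (11.2 to 20.4), and 36.6 in HU (30.3 to 43.9) and 18.4 in H2O (14.1 to 23.7). Neither pair of intervals overlapped. For IP6K3 the log2 ratio of APH to DMSO was 0.73 (0.21 to 1.27), that of HU to H2O was 0.99 (0.53 to 1.47), and that of H2O to DMSO was 0.27 (-0.31 to 0.85). IP6K3 was also the 1 gene of the 5 whose counting interval of APH vs HU left out 0, at -0.52 (-0.93 to -0.12). The share of all genes with such an interval was not counted, and the difference was not tested.

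The shared loops of IP6K3 differed in opposite order. The loop of 20 kb with both anchors on the gene had 66 counts in APH and 24 in DMSO (1.13, 0.44 to 1.87), and 74 in HU and 42 in H2O (0.83). H2O stood above DMSO at this loop, by 0.69 (-0.07 to 1.48), and against H2O the APH ratio was 0.44. The loop of 50 kb to UQCC2, an assembly factor gene of mitochondrial complex III, had 30 counts in APH and 22 in DMSO (0.12, -0.72 to 0.98), and 44 in HU and 18 in H2O (1.31, 0.48 to 2.18). The summed APH ratio of IP6K3 therefore rested on the 20 kb loop, and without that loop it was 0.12. Against the other vehicle, the 50 kb loop stood at 0.53 with APH (-0.36 to 1.46) and 0.90 with HU (0.13 to 1.71).

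Other loops of IP6K3 were short in the drug lists and long in the H2O list. The lists held 5 IP6K3 loops in APH and 2 in DMSO, and 8 in HU and 4 in H2O. A loop of 15 kb whose anchor holds the IP6K3 start site printed above had 24 counts in APH and 26 in HU, and it was in neither vehicle list. That start site lies inside the gene body. The upper-coordinate end of the body, 33762145, falls in a bin that anchors both shared loops in all 4 lists. Loops of 175 kb and of 285 kb, the second to the glutamate receptor gene GRM4, were listed in H2O alone with 14 and 13 counts.

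**Figure D2:**
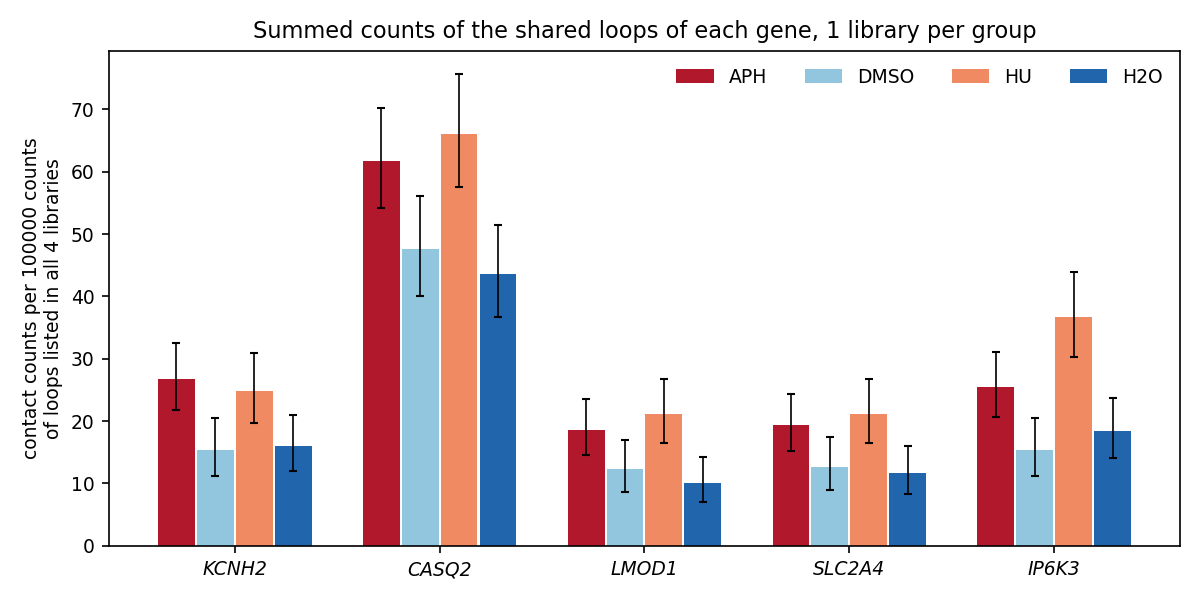
Summed contact counts of the shared loops of each gene, per 100000 counts of all shared loops, for APH, DMSO, HU and H2O (1 library each). Bars are single values and error bars 95% exact Poisson intervals, and for every gene both drug bars are taller than both vehicle bars in this scaling, although scaling by all listed loops leaves CASQ2 in APH vs DMSO at -0.0004.

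Set side by side, both drug libraries stood above both vehicle libraries at each of the 5 genes in counts scaled by the shared loops, while scaling by all listed loops put APH level with DMSO at CASQ2 (-0.0004). HU was above APH at CASQ2, LMOD1, SLC2A4 and IP6K3 and below it at KCNH2. H2O was above DMSO at KCNH2 and IP6K3 and below it at the other 3 genes. The Poisson intervals of HU and APH overlapped at every gene, and so did those of H2O and DMSO. Overlap of separate intervals is not a comparison of libraries, and at IP6K3 the ratio interval of APH vs HU left out 0 (-0.93 to -0.12). How often such intervals overlap, or how often that of APH vs HU leaves out 0, was not counted over all genes.

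Against all genes the 5 stood on the high side, as their choice required. With APH, 5 of 5 had a log2 ratio of at least 0.32 and 4 of 5 of at least 0.58 (1.5-fold), against 9.8% and 1.55% of the 2520 genes whose 2 libraries summed to 100 counts or more. With HU, 5 of 5 passed each threshold, against 12.9% and 3.18% of 2452 genes. Scaled by all listed loops, 2 of 5 passed 0.32 with APH and 0 of 5 passed 0.58, and with HU 5 of 5 passed each. In both contrasts at once, 3.19% of 2380 genes passed 0.32 and 0.378% passed 0.58. The counting interval lay above a ratio of 1 for 4 of the 5 genes with APH, all but LMOD1, and for 5 of 5 with HU, where 4.76% and 8.28% of genes had such intervals. Scaled by all listed loops, the interval lay above 1 for 0 of 5 genes with APH and for 5 of 5 with HU. That scaling shifts every gene alike, by -0.38 with APH and 0.05 with HU, so it leaves the rank of each gene unchanged. The shares of all genes given here hold for scaling by the shared loops and were not counted under the other scaling. The median log2 ratio of the 5 was 0.61 with APH and 0.86 with HU, against -0.0088 and -0.011 over all these genes. Between the vehicles the median of the 5 was -0.12, against 0.0088 over 2387 genes, and the 2 of the 5 with 100 counts there, CASQ2 and IP6K3, passed 0.32 in neither direction, where 6.49% of genes were higher and 6.87% lower by that much. In rank from the highest ratio with APH, KCNH2 was 4, IP6K3 13, SLC2A4 29, LMOD1 35 and CASQ2 173 of 2520, and with HU, LMOD1 was 3, IP6K3 5, SLC2A4 15, KCNH2 63 and CASQ2 73 of 2452.

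**Figure D3:**
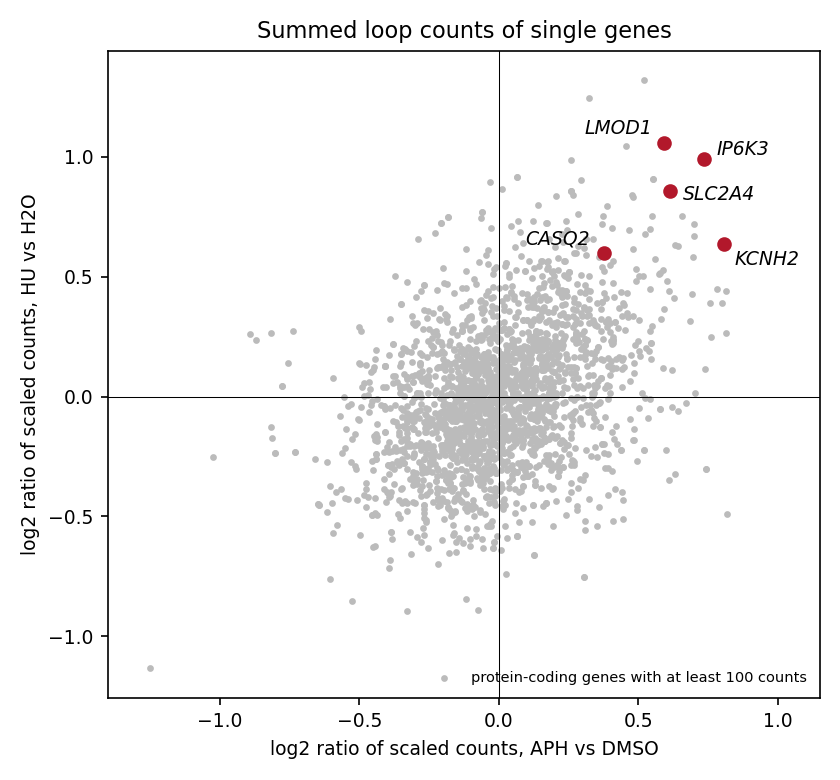
Log2 ratio of summed, scaled loop counts for APH vs DMSO (x axis) and HU vs H2O (y axis), 1 point per protein-coding gene with at least 100 counts in each contrast. The 5 genes (red) were chosen for lying to the upper right, with CASQ2 nearest to the bulk of genes at 0.38 and 0.60.

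Loop by loop, 9 of the 10 shared loops had a ratio above 1 with APH and 10 of 10 with HU, where 47.3% and 49.8% of all 9529 loops did. Their median log2 ratio was 0.51 with APH, within a range of -0.23 to 1.13, and 0.85 with HU, within a range of 0.19 to 1.31. The medians over all shared loops were -0.02 and -0.0067. The counting interval lay above 1 for 4 of the 10 loops with APH and 7 of 10 with HU, where 2.76% and 3.92% of all 9529 loops had such intervals. Between the vehicles 3 of the 10 were above 1 and 7 below, where 49.2% of all loops were above, with a median of -0.17, and APH vs HU had 2 above and 8 below, with a median of -0.21, where 49.2% of all loops were above and the median was -0.0047. The 10 loops are not 10 independent values, because pairs of them share an anchor at KCNH2, CASQ2 and IP6K3.

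**Figure D4:**
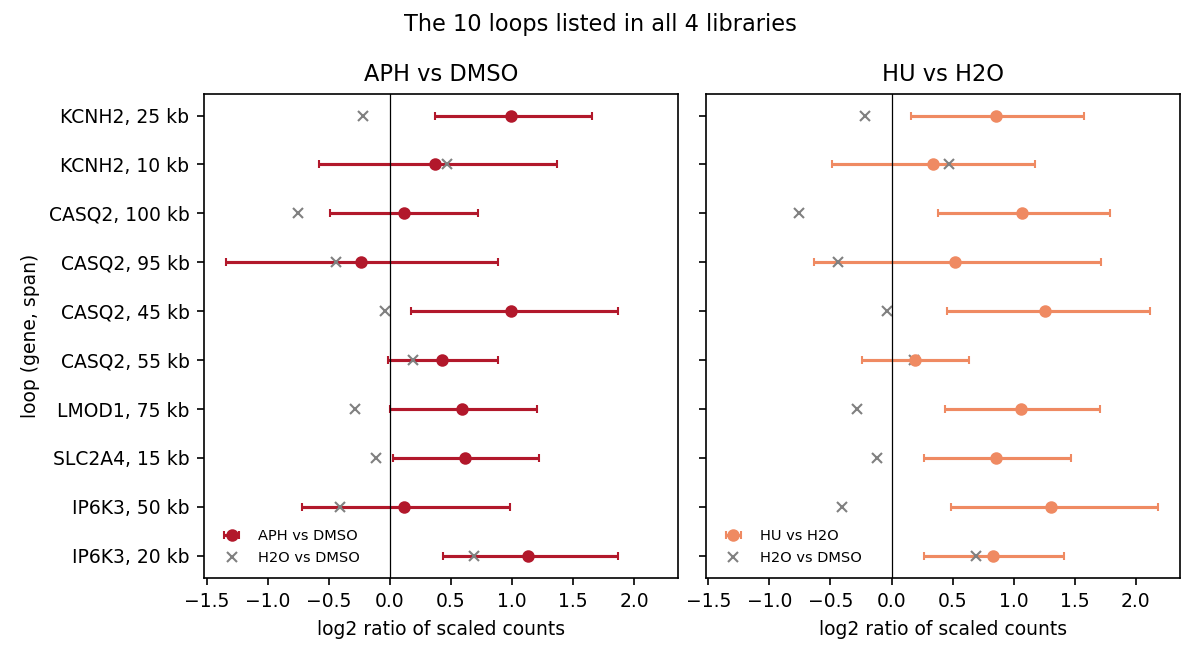
Log2 ratio of scaled counts for each of the 10 shared loops, APH vs DMSO on the left and HU vs H2O on the right, with 95% exact conditional binomial intervals. Grey crosses give H2O vs DMSO for the same loop. The IP6K3 loop of 50 kb and the CASQ2 loop of 100 kb are high in HU vs H2O (1.31 and 1.07) and near 0 in APH vs DMSO (0.12 and 0.11). Against the other vehicle these 2 loops stood at 0.90 and 0.31 with HU and at 0.53 and 0.87 with APH, not drawn.

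The loops of the 5 genes were short. The 10 shared loops spanned 10 to 100 kb with a median of 47.5 kb, against 115 kb over all 9529 shared loops, and 9 of 10 were under 100 kb, against 42.6% of all. Loops under 100 kb stood higher in both drug libraries as a class, at 0.08 with APH and 0.08 with HU. Set against that class, or the next for longer loops, the 5 genes stood at 0.33 to 0.73 with APH and 0.55 to 0.98 with HU, and KCNH2, for example, at 0.73 and 0.56.

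The count that the caller expected for these loops, which is taken here to be the deposited column of values that are not whole, moved with the observed counts in several cases. For the LMOD1 loop the expected count was 4.16 in APH and 3.45 in DMSO, and 4.45 in HU and 2.78 in H2O. The observed count was 16.8 times the expected one in APH and 10.7 times in DMSO, and 15.3 times in HU and 11.9 times in H2O. For KCNH2 observed over expected was 5.05 in APH and 3.41 in DMSO, and 4.14 in HU and 3.23 in H2O. The scaled expected counts of the 5 genes differed by log2 ratios of -0.02 to 0.28 with APH and of 0.28 to 0.69 with HU. Divided by the expected counts, the ratios of the 5 genes were 0.25 to 0.62 with APH and 0.13 to 0.48 with HU, and CASQ2 was lowest in both. The part of the expected counts in the differences was not tested further.

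In the lists themselves the 5 genes held 24 loops in APH and 13 in DMSO, and 28 in HU and 16 in H2O. The APH list as a whole was the longer of its pair, with 27395 loops against 17660 in DMSO. The HU list was the shorter of its pair, with 21448 loops against 22446 in H2O. Of the 37 loops, 18 (48.6%) were in 1 or both drug lists and in neither vehicle list, against 34.0% of all 41846 loops. A further 4 (10.8%) were in 1 or both vehicle lists and in neither drug list, against 19.6% of all. Loops in both drug lists and in neither vehicle list numbered 6 (16.2%), against 5.69% of all. Loops in the HU list and not in the H2O list made up 17 of the 37 (45.9%), against 19.9% of all loops, and loops in the APH list and not in the DMSO list 12 of the 37 (32.4%), near the 33.7% of all loops. In the other direction, 5 (13.5%) were in H2O and not in HU, against 22.2% of all, and 1 (2.70%) was in DMSO and not in APH, against 10.4% of all. Start sites in the drug lists alone included those of CASQ2, LMOD1 and IP6K3 printed above. The upper-coordinate end of the minus-strand IP6K3 body, however, lay in an anchor of all 4 lists. Of 22012 start sites of protein-coding genes, 7.09% lay in an anchor of 1 or both drug lists and of neither vehicle list, against 3.26% the other way round. The KCNH2 start sites 150960056, 150975041 and 150978321 lay in anchors of all 4 lists, as 9.94% of start sites did. These listings come from the same counts that chose the genes.

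Loops around the 5 genes were counted next, within 500 kb of each gene and with no anchor on it, since these loops were not used to choose the genes. Around KCNH2, 6 such loops pooled to log2 ratios of -0.08 with APH (-0.33 to 0.16) and -0.13 with HU (-0.40 to 0.14), and none of the 6 reached the ratio of KCNH2 in either contrast. Around SLC2A4, 19 loops stood at -0.08 (-0.23 to 0.08) and 0.08 (-0.09 to 0.24), and 2 of the 19 exceeded SLC2A4 with APH and 3 with HU. The surroundings of the other genes were less even. Around LMOD1, 12 loops stood at 0.36 with APH (0.18 to 0.55) and at 0.01 with HU (-0.17 to 0.19), with H2O vs DMSO at 0.21 (0.01 to 0.40). Of these 12 loops, 4 had a higher ratio than LMOD1 with APH and 0 with HU. Around IP6K3, 11 loops stood at 0.29 (0.07 to 0.51) and 0.11 (-0.11 to 0.34), and 1 of the 11 exceeded IP6K3 with APH and 0 with HU. Around CASQ2 there were 2 loops, at 0.24 with APH (-0.20 to 0.68) and 0.73 with HU (0.27 to 1.19), above the 0.60 of the gene itself with HU, where the intervals overlap. Of these 2, the loop from 115605001 to 115775000 joins 2 bins that also anchor shared loops of CASQ2. Around KCNH2, LMOD1 and SLC2A4, 1 loop each likewise shared an anchor with a shared loop of the gene, and around IP6K3 0 did. Because the 5 genes were picked for high ratios, it follows from the choice that few loops around them stood higher. The difference between each gene and its surroundings was not tested, and the same counts were not made around other genes.

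The genes at the far anchors were measured on their remaining shared loops, which do not touch the 5 genes. These loops are also among the surrounding loops pooled above, so their counts are not separate from those. UQCC2, next to IP6K3, had 40 counts in APH and 35 in DMSO (-0.14), and 35 in HU and 25 in H2O (0.50). TIMM17A, next to LMOD1, stood at 0.97 with APH and -0.19 with HU on the 95 kb loop given above, and RNPEP at -0.01 and 0.37. ACAP1, next to SLC2A4, stood at 0.12 and 0.30, and GRM4, beyond IP6K3, at 0.59 and 0.26. All these intervals included 0 except that of TIMM17A with APH (0.0017 to 2.03). ATG9B and VANGL1 had no shared loop.

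Other genes of the same pathways were counted from lists written with earlier results known, the 5 genes left out, as genes with a log2 ratio of at least 0.32 upward (higher) or downward (lower) among those with at least 100 counts. For all genes the shares were 9.8% higher and 9.48% lower with APH, and 12.9% higher and 12.8% lower with HU. Of 19 other cardiac ion channel and conduction genes, 3 had enough counts, of which 0 were higher and 1 lower with APH (median -0.11) and 0 were higher and 0 lower with HU (median -0.22). With at least 40 counts, KCNQ1, the channel of the slow delayed rectifier current, was highest with APH, at 67 counts in APH and 31 in DMSO (0.78, 0.15 to 1.45), and CACNA2D1, an auxiliary calcium channel subunit gene, was lowest (-0.35). With HU the ends were CACNA1C, the cardiac L-type calcium channel gene (0.67), and KCNIP2, a potassium channel modulator gene (-0.25), both with intervals that included 0.

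Of 17 other genes of the muscle calcium store, 4 had enough counts, of which 0 were higher and 1 lower with APH (median 0.05) and 1 was higher and 0 lower with HU (median 0.09). The gene higher with HU was JPH2, a junctophilin gene, with 104 counts in HU and 84 in H2O (0.32, -0.10 to 0.76), named after its values were seen. CASQ1, the skeletal muscle paralogue of CASQ2, was lowest with APH, with 70 counts in APH and 70 in DMSO (-0.33, -0.83 to 0.17), and S100A1, a calcium sensor gene of heart muscle, was highest (0.67). With HU, RYR3, a ryanodine receptor gene, was highest (0.36), with an interval that included 0. Of 22 other smooth muscle and actin regulation genes, 6 had enough counts with APH, of which 0 were higher and 2 lower (median -0.04), and 5 with HU, of which 0 were higher and 1 lower (median -0.13). SMTN, the smoothelin gene, was highest in both contrasts, at 0.55 (-0.09 to 1.22) and 0.65 (-0.03 to 1.35), and TPM1, a tropomyosin gene, was lowest with APH (-0.45). The other gene lower with APH was CNN1, the calponin gene, at -0.38, also named after its values were seen. MRTFA, whose product activates serum response factor, was lowest with HU, with 142 counts in HU and 240 in H2O (-0.74, -1.05 to -0.44).

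Sarcomere genes were hardly measured. Of 23 such genes, 5 had a shared loop and 1 had at least 100 counts, MYOM1, a myomesin gene, at -0.31 with APH (-0.79 to 0.17) and 0.06 with HU. LDB3, a Z-disc gene, gave the other end with at least 40 counts, at -0.15 and -0.28. Of 15 muscle transcription factor genes, 2 had enough counts in each contrast, of which 0 were higher and 1 lower. MEF2A, which is active in blood cells as well as in muscle, had 141 counts in APH and 153 in DMSO (-0.45, -0.79 to -0.11), and 109 in HU and 170 in H2O (-0.63, -0.99 to -0.27), and MEF2B, a germinal centre B cell factor, stood at 0.0080 and 0.08.

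Of 21 other genes of glucose transport and insulin-responsive trafficking, 5 had enough counts, of which 0 were higher and 0 lower with APH (median 0.0004) and 0 were higher and 1 lower with HU (median -0.20). INSR, the insulin receptor gene, was lowest with HU, with 114 counts in HU and 172 in H2O (-0.58, -0.93 to -0.23), and VAMP2, a vesicle fusion gene, was highest (0.46, -0.33 to 1.27). With APH the ends were TBC1D4, a GTPase-activating protein gene of GLUT4 traffic (0.19), and SLC2A4RG, named as a regulator of SLC2A4 (-0.29), with intervals that included 0. Of 16 other inositol phosphate genes, 3 had enough counts, of which 0 were higher and 0 lower with APH (median -0.14) and 0 were higher and 1 lower with HU (median 0.02). ITPR3, an inositol trisphosphate receptor gene, was highest in both contrasts, at 0.23 and 0.37, NUDT4 was lowest with APH (-0.29), and ITPR1, another receptor gene, was lowest with HU, with 250 counts in HU and 352 in H2O (-0.48, -0.72 to -0.24). The 1 shared loop of ITPR3 is also among the loops around IP6K3 pooled above. Across the 7 groups, 1 gene with enough counts was higher in a drug contrast, JPH2 with HU. Over all genes, 9.8% were higher with APH and 12.9% with HU. The genes that were lower are given by group above. The count depends on the minimum of 100 counts, which KCNQ1 missed with APH, at 67 counts in APH and 31 in DMSO (0.78). Most members of each group had too few counts in shared loops to be placed.

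The genes whose pattern over the 4 libraries was most like that of each gene were found by the Euclidean distance between log2 scaled counts centred over the 4 libraries, among 3834 genes with at least 100 counts over the 4 libraries. For KCNH2 they were ARHGEF16 (distance 0.06) and GPT2 (0.08), and for CASQ2 CAPN5 (0.04) and WFIKKN2 (0.05). For LMOD1 they were C8orf76 (0.12) and ADAM33 (0.13), for SLC2A4 AHSA1 (0.02) and C8orf76 (0.06), and for IP6K3 TRIM2 (0.07) and GSG1L (0.08). AHSA1, an HSP90 cochaperone gene, had 37 counts in APH and 19 in DMSO, and 34 in HU and 19 in H2O. With 4 libraries such a likeness describes 4 values and no more.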

How the data were processed

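SMC1 HiChIP was measured in 4 libraries, grouped by the treatment in the labels. Per the submitters' processing notes, bcl2fastq 2.17 and MACS3 3.0.1 were used and the build was hg38. Which programs aligned reads and called loops, and with what filters, is not given in the sources used here. Each library has 1 deposited loop list with no header, whose contact counts per pair of 5 kb bins are raw, whole and never below 12. Another deposited column was read from its values as the caller's expected counts, exceeded at least 2-fold by the observed ones, and another as q-values, all below 0.01 and not used further.

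Shared loops, those listed in all 4 libraries, had their counts summed per gene and scaled by each library's total, with Python 3.11.15, numpy 2.4.6, pandas 2.3.3, scipy 1.17.1 and matplotlib 3.10.9. Gene bodies and promoter sequences came from RefSeq, GRCh38.p14. Ratios carry 95% exact conditional binomial intervals, counts exact Poisson intervals. No p-value was computed, with 1 library per group. The steps were tested on simulated data. The members and gene lists were chosen with earlier results of these data known. Named genes are the 5, those at far anchors, the ends of each list with at least 40 counts, and the 2 of most similar pattern per gene. One list end is not reported here. Alternatives covered scaling, span class, vehicle, loop choice, count minimum, bin tolerance, gene ends, expected counts and leaving out the top loop. No genome sequence was used, so motifs were searched before start sites and not across anchors.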

Additional observations from a re-analysis of the deposited data

How the results depend on the processing

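No paired analysis was possible because the groups share 1 replicate number and hold 1 library each. The alternative values below reuse the counts that chose the genes and share most counts among themselves. Values above 0 therefore follow largely from that choice, and other genes were not put through the same settings. Over 53 alternative values per contrast, the ratios of the 5 genes stayed above 0 in 52 with APH and in 53 with HU, ranging from -0.0004 to 1.36 and from 0.13 to 1.41. The exception was CASQ2 with APH, at -0.0004 when scaled by all listed loops, which shifts every ratio by -0.38 with APH and 0.05 with HU. Unscaled, CASQ2 with APH was 0.70. With all loops listed in either library, an unlisted loop adding no count, CASQ2 was 0.88 with APH and 1.11 with HU. IP6K3 was 1.36 with APH and KCNH2 1.246 with HU. SLC2A4 with APH was 0.16 (-0.37 to 0.70) and LMOD1 with HU 0.48 (-0.02 to 0.98), both with intervals that include 0. These values were still scaled by the shared loops, while all listed loops summed to 732695 counts in APH and 449565 in DMSO. In this setting the total of all listed loops thus itself stands above 0 with APH, by the size of the -0.38 shift, and SLC2A4 with APH lay below that level. Divided by expected counts, CASQ2, LMOD1 and IP6K3 with HU were 0.13, 0.37 and 0.48. Without the strongest loop, IP6K3 with APH was 0.12 and CASQ2 with HU 1.04, and LMOD1 and SLC2A4 have no other shared loop. Against the other vehicle the 10 values were 0.47 to 1.26.

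With APH, 2 in place of 5 genes passed 0.32 when scaled by all listed loops, which lowers every gene alike. The shares of all genes were not counted under the alternatives. Past 1.5-fold there were 0 in place of 4 with that scaling, 2 relative to span class and 2 with loops at gene ends, and with HU 3 in place of 5 relative to span class. Intervals lay above 1 with APH for 0 of 5 genes when scaled by all listed loops, for 2 of 5 with loops at gene ends and for 0 of 3 without the strongest loop, in place of 4 of 5. Loops above a ratio of 1 numbered 6 of 10 with APH when scaled by all listed loops, and 10 of 10 with HU. With at least 24 counts, the listed loops were 1 for KCNH2 in DMSO, 4 for CASQ2 in APH and 2 in DMSO, 4 in HU and 2 in H2O, 1 for LMOD1 in APH, HU and H2O, 1 for SLC2A4 in DMSO, and for IP6K3 3 in APH and 1 in DMSO, 3 in HU and 1 in H2O. Within 5 kb of gene ends, KCNH2 kept 1 loop in each list, and SLC2A4 had 2 in APH, HU and H2O. The causes were not tested. Depth is unknown, and weak loops have wide counting intervals, such as -1.35 to 0.88 for the CASQ2 loop of 95 kb with APH.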
